A study of Mus musculus with 18 samples.

Results

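The genes described here are 35 genes of glycolysis and of the transcriptional response to low oxygen, chosen by name. Each was represented by the probe set that carries its symbol alone in the array's annotation and has the highest mean over the 18 arrays. In all 31 of the 35 could be followed, among 12393 genes with a probe set of their own. Gpi1, Eno1 and Ankrd37 had no such probe set, and the Bnip3l probe sets are shared with a pseudogene, so these 4 were not analysed here.

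Affymetrix expression arrays profiled retinas of Balb/cJ mice, an albino strain, in which the retina was detached by an injection of 1 uL under it. The control groups received saline alone and the treated groups saline with 10 uM INS37217, an agonist of the P2Y2 nucleotide receptor, so that every group carried a detachment. Retinas were collected at 2 h, 24 h and 7 d, each array held RNA pooled from more than 5 retinas, and each of the 6 groups had 3 arrays, which the series' design text calls biological replicates. No uninjected retina was analysed here, and the sources used here do not give the age of the mice. Groups follow the sample titles. In the source names 8 of the 9 INS37217 arrays carry saline alone, and saline 7 d replicate 2 carries 2 h, although this array correlated best with INS37217 7 d replicate 2 (r = 0.9945 over all probe sets).

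Replicate 1 of every group stood apart. Within groups, replicates 2 and 3 correlated at 0.9941 to 0.9966 and replicate 1 with either at 0.9591 to 0.981. Results are therefore also given with the replicate number as a term of the model, called the block. The 10 measured rod photoreceptor markers averaged 11.62 to 12.29 in the 6 group means, so that the retina's main cell type was present. The 3' minus 5' signal of the beta-actin control, a sign of RNA quality, moved with time and averaged 1.04 on the log2 scale in saline 2 h and 0.747 in INS37217 2 h, against 0.603 to 0.65 in the 4 later groups. Lens markers were lowest in saline 2 h as well, at a mean of 10.6 over 9 genes against 11.3 to 11.7 in the 5 other groups. The part of both in the results below was not tested.

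Glycolysis splits glucose into pyruvate in the cytosol, and lactate dehydrogenase can turn that pyruvate into lactate. The retina, and its photoreceptors above all, is known for making lactate from glucose even when oxygen is plentiful. Hypoxia-inducible factors (HIF) are transcription factors whose alpha subunits are hydroxylated by the prolyl hydroxylases Egln1 and Egln3 and degraded while oxygen is present. In low oxygen the alpha subunits persist and raise transcription of glucose transporters, most glycolytic enzymes, vascular factors such as Vegfa and Adm, and genes of mitochondrial clearance and collagen modification. Detachment moves photoreceptors away from the choroid, the vascular bed that supplies most of their oxygen and glucose. In a whole retina, fewer cells of a type and less RNA per cell cannot be told apart.

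By their probe sets of highest mean, 4 of the 31 genes differed between times after injection, and no difference between INS37217 and saline passed limma's test. The count of 4 is over several comparisons, whereas the shares of all probe sets below are each for 1 comparison. Pfkfb3 and Adm were higher at 2 h than at 24 h or 7 d, Hk2 was lower at 7 d than at 2 h, and Pdk3 was higher at 24 h than at 2 h, each of them in saline and in INS37217 retinas. Values are RMA (robust multi-array average) signals, which are on the log2 scale, and differences are between groups of 3 arrays. Each is given with limma's p adjusted over 22626 probe sets, where a value under 0.05 passed, and its standard error (SE). Block adjusted p is that of the model with the block, given where that model changed the call. At 24 h against 2 h with saline 3 of the 31 genes passed (9.68%), beside 7.58% of all probe sets. Of these 1 was higher and 2 lower, where 4.65% of all probe sets were higher and 2.93% lower. The same comparison with INS37217 also gave 1 gene higher and 2 lower, beside 6.52% of all probe sets (3.23% higher and 3.3% lower). Comparing 7 d with 2 h, 3 genes (9.68%) were lower in each treatment. All probe sets then passed at 5.44% with saline (2.74% lower) and 4.91% with INS37217 (2.39% lower). Comparing 7 d with 24 h, 0 of 31 passed in limma in either treatment, beside 1.31% and 2.21% of all probe sets. At an unadjusted p under 0.05, to which these shares do not apply, there were 6 genes with saline and 7 with INS37217. Comparisons of 24 h and of 7 d with 2 h use the same 2 h arrays, whereas the saline and INS37217 comparisons share no array. The treatments still share 1 estimate of the spread. Same-numbered arrays of different groups also correlated, at 0.426 to 0.921 after removal of group means, so the treatments are not fully separate evidence.

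**Figure D1:**
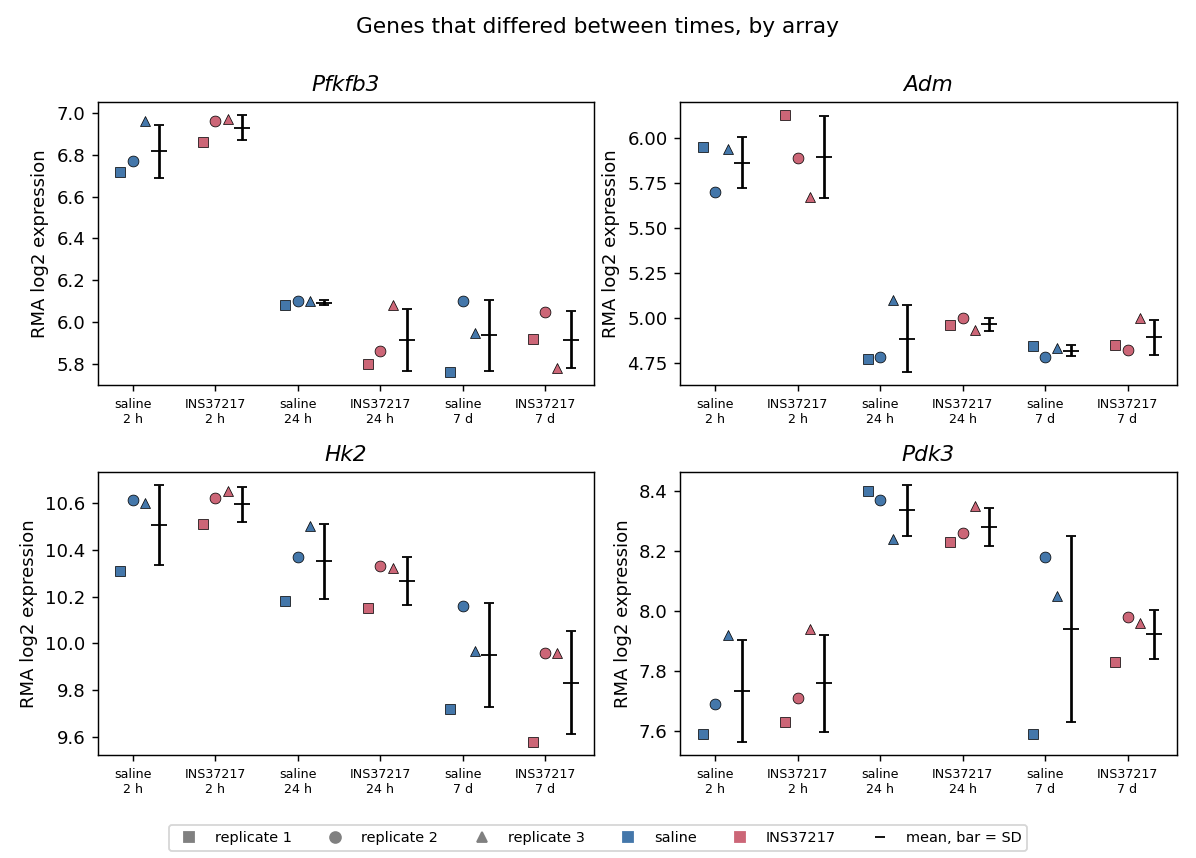
RMA log2 expression (y axes) of Pfkfb3, Adm, Hk2 and Pdk3 in the 6 groups (x axes), with 1 point per array, its shape giving the replicate number, and the mean with a bar of 1 SD (n = 3). The 6 arrays at 2 h read 6.72 to 6.97 for Pfkfb3 and all later arrays read 6.10 or less, while Hk2 reads 9.58 to 10.16 at 7 d against 10.31 to 10.65 at 2 h.

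Pfkfb3 encodes the kinase that makes the main allosteric activator of phosphofructokinase and thereby speeds glycolysis. It read 6.72, 6.77 and 6.96 on replicates 1, 2 and 3 of saline 2 h, the order used throughout, then 6.08, 6.10 and 6.10 in saline 24 h and 5.76, 6.10 and 5.95 in saline 7 d. With INS37217 it read 6.86, 6.96 and 6.97 at 2 h, 5.80, 5.86 and 6.08 at 24 h and 5.92, 6.05 and 5.78 at 7 d. In both treatments the 2 h arrays all lay above the later ones. Pfkfb3 fell from 2 h to 24 h by 0.72 (adjusted p = 0.000807, SE 0.11) with saline, a 1.65-fold decrease, and by 1.02 (adjusted p = 2.53e-05, SE 0.11) with INS37217, 2.02-fold. At 7 d against 2 h it fell by 0.88 (adjusted p = 0.000178, SE 0.11) with saline and 1.01 (adjusted p = 3.42e-05, SE 0.11) with INS37217. Its values at 24 h and 7 d lay close together, with differences of -0.16 (adjusted p = 0.896, SE 0.11) and 0.00 (adjusted p = 1, SE 0.11). A second Pfkfb3 probe set, of lower mean signal (5.47), did not pass: it stood at 0.18 at 24 h against 2 h with saline (adjusted p = 0.628) and -0.22 with INS37217 (adjusted p = 0.633). With the mean of both probe sets the saline decreases no longer passed, at -0.27 for 24 h (adjusted p = 0.239) and -0.34 for 7 d (adjusted p = 0.164), whereas the INS37217 decreases did.

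Adm encodes adrenomedullin, a secreted peptide that widens blood vessels and a classic HIF target. It read 5.95, 5.70 and 5.94 in saline 2 h and 6.13, 5.89 and 5.67 in INS37217 2 h. At 24 h it read 4.77, 4.78 and 5.10 with saline and 4.96, 5.00 and 4.93 with INS37217, and at 7 d 4.84, 4.78 and 4.83 with saline and 4.85, 4.82 and 5.00 with INS37217. The lowest 2 h array (5.67) again lay above the highest later one (5.10). The fall from 2 h to 24 h was 0.98 (adjusted p = 0.00012, SE 0.12) with saline, or 1.97-fold, and 0.93 (adjusted p = 0.000162, SE 0.12) with INS37217, or 1.91-fold. By 7 d Adm fell from its 2 h level by 1.05 (adjusted p = 8.23e-05, SE 0.12) with saline and 1.01 (adjusted p = 9.28e-05, SE 0.12) with INS37217. Its probe set lay at the 23.6th percentile of mean signal, and no detection calls were used here. Adm passed in all 4 of these comparisons under every alternative that tested it. Vegfa, the other secreted factor of the list and the main growth factor of retinal vessels, did not pass without the block. It read 7.71, 7.67 and 7.64 in saline 2 h, 7.75, 7.90 and 7.99 in saline 24 h and 7.71, 8.0 and 8.34 in saline 7 d, and 7.56, 7.43 and 7.95 at 2 h, 7.84, 7.83 and 7.79 at 24 h and 7.92, 7.87 and 7.97 at 7 d with INS37217. The saline 7 d difference from 2 h was 0.34 (adjusted p = 0.246, block adjusted p = 0.0446, SE 0.15), and -0.033 with the mean of its 2 probe sets. The other Vegfa probe set stood at -0.41 in that comparison (adjusted p = 0.212).

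The 2 hexokinase genes, whose products phosphorylate glucose on entry, are given in turn. Hk2, the hexokinase known for photoreceptors, read 10.31, 10.61 and 10.60 in saline 2 h, 10.18, 10.37 and 10.50 at 24 h and 9.72, 10.16 and 9.97 at 7 d. In INS37217 retinas it read 10.51, 10.62 and 10.65 at 2 h, 10.15, 10.33 and 10.32 at 24 h and 9.58, 9.96 and 9.96 at 7 d. Each treatment had its lowest arrays at 7 d, and replicate 1 was lowest within every group. Hk2 fell by 7 d, against 2 h, by 0.56 (adjusted p = 0.0296, SE 0.14) with saline, 1.47-fold, and by 0.76 (adjusted p = 0.00354, SE 0.14) with INS37217, 1.69-fold. At 24 h against 2 h the difference was -0.16 (adjusted p = 0.598, SE 0.14) with saline and -0.33 (adjusted p = 0.244, block adjusted p = 0.012, SE 0.14) with INS37217. The 7 d difference from 24 h was -0.40 (adjusted p = 0.311, block adjusted p = 0.00782, SE 0.14) and -0.43 (adjusted p = 0.191, block adjusted p = 0.00313, SE 0.14). The saline call at 7 d was lost without saline 2 h replicate 2 (adjusted p = 0.132), saline 2 h replicate 3 (0.122), saline 7 d replicate 1 (0.0897) or saline 7 d replicate 3 (0.0908). When the fit held the 2 compared groups alone, neither call passed (adjusted p = 0.187 with saline and 0.0604 with INS37217). Rod markers also moved with time, but were lowest at 24 h, where Hk2 was lowest at 7 d. The rod marker mean was 12.22, 11.69 and 11.91 in saline at 2 h, 24 h and 7 d and 12.29, 11.62 and 11.83 with INS37217. Of the 10 rod markers, 5 and 7 passed as lower at 24 h against 1 and 1 at 7 d. With saline and INS37217, 2.93% and 3.3% of all probe sets were lower at 24 h, and 2.74% and 2.39% at 7 d. The part of the rod markers in the Hk2 result was not tested.

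Hk1, the hexokinase found in most cells, had its highest group means at 24 h and did not pass without the block. It read 11.25, 10.78 and 10.78 in saline 2 h, 11.67, 11.15 and 11.13 in saline 24 h and 11.25, 10.64 and 10.87 in saline 7 d. With INS37217 it read 11.26, 10.68 and 10.85 at 2 h, 11.74, 11.05 and 11.11 at 24 h and 11.17, 10.79 and 10.55 at 7 d. Replicate 1 was above replicates 2 and 3 in all 6 groups, by a mean of 0.53. The 24 h difference from 2 h stood at 0.38 (adjusted p = 0.429, block adjusted p = 0.00467, SE 0.24) with saline and 0.37 (adjusted p = 0.522, block adjusted p = 0.00708, SE 0.24) with INS37217, and the 7 d difference from 24 h at -0.40 (adjusted p = 0.802, block adjusted p = 0.0117, SE 0.24) and -0.46 (adjusted p = 0.725, block adjusted p = 0.00259, SE 0.24). A second Hk1 probe set passed without the block, at 0.90 for 24 h against 2 h with saline (adjusted p = 0.000137) and 0.47 with INS37217 (adjusted p = 0.0221). It also passed as lower at 7 d against 24 h with saline, at -0.52 (adjusted p = 0.039).

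Pdk3 encodes a pyruvate dehydrogenase kinase, which holds pyruvate back from the mitochondrial citric acid cycle. It read 7.59, 7.69 and 7.92 in saline 2 h, 8.40, 8.37 and 8.24 in saline 24 h and 7.59, 8.18 and 8.05 in saline 7 d. In INS37217 retinas it read 7.63, 7.71 and 7.94 at 2 h, 8.23, 8.26 and 8.35 at 24 h and 7.83, 7.98 and 7.96 at 7 d. The 24 h arrays were above all 2 h and all 7 d arrays of their treatment. Pdk3 rose from 2 h to 24 h by 0.60 (adjusted p = 0.0149, SE 0.14) with saline, 1.52-fold, and 0.52 (adjusted p = 0.0366, SE 0.14) with INS37217, 1.43-fold. At 7 d against 24 h it stood at -0.40 (adjusted p = 0.32, block adjusted p = 0.037, SE 0.14) with saline and -0.36 (adjusted p = 0.399, SE 0.14) with INS37217. The saline call was lost without saline 2 h replicate 1 (adjusted p = 0.0655), saline 2 h replicate 2 (0.0614) or saline 24 h replicate 2 (0.0602). The INS37217 call was lost without INS37217 2 h replicate 1 (0.145), INS37217 2 h replicate 2 (0.113) or INS37217 24 h replicate 1, 2 or 3 (0.0646, 0.101 and 0.141), and when the fit held the 2 compared groups alone (0.0705). Pdk1, a sister kinase and a HIF target, differed by -0.05 to 0.17 in the 9 comparisons of 2 groups, with no adjusted p below 0.835 without the block. Of 13 microglia, macrophage and neutrophil markers, 6 passed as higher at 24 h with saline and 8 with INS37217, beside 4.65% and 3.23% of all probe sets. The marker means went from 6.01 to 6.58 and from 6.03 to 7.10, and their part in the Pdk3 result was not tested.

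**Figure D2:**
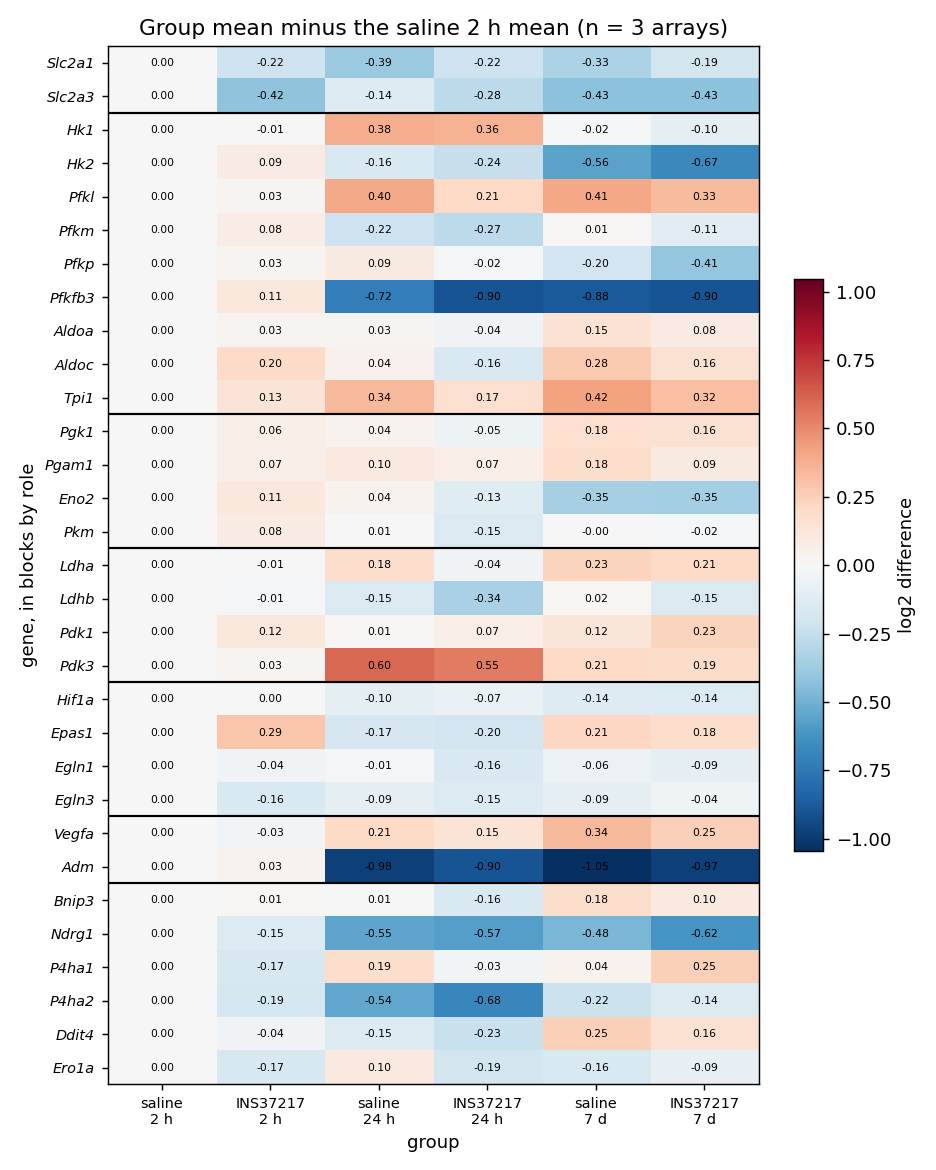
Difference of each group mean (n = 3 arrays) from the saline 2 h mean on the log2 scale, for the 31 genes (rows, in blocks by role, from glucose transport at the top to HIF targets within the cell at the bottom) and the 6 groups (columns). At 7 d the lowest values in both treatments are those of Adm (-1.05 and -0.97), Pfkfb3 (-0.88 and -0.90) and Hk2 (-0.56 and -0.67), and at 24 h the highest are those of Pdk3 (0.60 and 0.55).

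The promoters of the 4 genes are shown because HIF binds DNA through a short core, ACGTG or GCGTG, and 26 of the 28 genes with a promoter window in RefSeq (build GRCm38.p6) held this core on either strand. Eno2 and Tpi1 had none of these letters there, and no window was matched for Epas1, Ndrg1 and Slc2a3. Each window is the 250 bases before an annotated start, read 5′ to 3′ along the gene, with matches to the core in capitals. On the minus strand the core reads CACGT or CACGC, and CACGTG, an E-box, holds it on both strands.
Adm (chr7:110627407-110627656, plus strand): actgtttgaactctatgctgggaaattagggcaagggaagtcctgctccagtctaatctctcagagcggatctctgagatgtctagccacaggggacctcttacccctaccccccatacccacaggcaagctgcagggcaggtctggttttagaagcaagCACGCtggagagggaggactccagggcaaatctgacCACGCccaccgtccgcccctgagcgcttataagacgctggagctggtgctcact
Pfkfb3, upstream start (chr2:11553930-11554179, minus strand): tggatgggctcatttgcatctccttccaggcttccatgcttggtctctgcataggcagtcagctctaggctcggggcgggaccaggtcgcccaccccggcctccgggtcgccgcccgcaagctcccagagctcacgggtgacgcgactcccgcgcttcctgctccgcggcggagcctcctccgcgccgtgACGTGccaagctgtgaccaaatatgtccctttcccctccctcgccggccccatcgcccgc
Pfkfb3, inner start (chr2:11502091-11502340, minus strand): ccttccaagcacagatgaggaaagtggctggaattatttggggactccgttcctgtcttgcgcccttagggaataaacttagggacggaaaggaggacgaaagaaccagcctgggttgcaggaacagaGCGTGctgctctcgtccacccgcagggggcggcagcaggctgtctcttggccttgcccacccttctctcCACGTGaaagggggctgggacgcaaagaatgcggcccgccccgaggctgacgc
Hk2 (chr6:82774455-82774704, minus strand): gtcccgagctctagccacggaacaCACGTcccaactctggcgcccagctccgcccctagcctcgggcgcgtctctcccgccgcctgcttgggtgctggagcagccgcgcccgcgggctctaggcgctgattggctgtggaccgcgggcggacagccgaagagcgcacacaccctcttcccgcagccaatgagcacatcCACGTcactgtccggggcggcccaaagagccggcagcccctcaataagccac
Pdk3 (chrX:93832151-93832400, minus strand): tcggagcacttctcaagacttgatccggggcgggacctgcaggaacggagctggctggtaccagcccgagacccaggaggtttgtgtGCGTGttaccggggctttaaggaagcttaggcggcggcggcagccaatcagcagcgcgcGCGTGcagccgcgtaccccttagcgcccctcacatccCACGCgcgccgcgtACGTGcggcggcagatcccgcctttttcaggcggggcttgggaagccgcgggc
Adm and Hk2 had 2 matches each, the Pfkfb3 windows 1 and 3, and Pdk3 4, so that genes which fell and a gene which rose both held the core. At the inner start of Pfkfb3 a CACGTG lay 53 bases before the start and supplied 2 overlapping matches. Such letters are frequent. By gene, 92.9% of these 28 held the core, beside 55.7% of 9887 genes on the array and 41.5% of all 27025 genes with a window. The core occurred in 80.0% of the 40 windows of these genes, in 50.6% of the 12566 windows of genes on the array and in 38.6% of all 32851 windows. The windows of these genes held a mean of 15.5 CpG pairs against 14.3 for genes on the array and 9.86 for all. Several of the genes were listed because they are known HIF targets, and a match is not evidence of binding.

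Among the glucose transporters neither gene passed without the block by its probe set of highest mean. Slc2a1, the carrier of the blood-retina barrier and of most retinal cells, read 9.49, 10.36 and 10.28 in saline 2 h, 9.34, 9.69 and 9.93 at 24 h and 9.24, 9.98 and 9.91 at 7 d. With INS37217 it read 9.13, 10.26 and 10.08 at 2 h, 9.41, 10.02 and 10.04 at 24 h and 9.27, 10.12 and 10.16 at 7 d. Replicate 1 was the lowest array of all 6 groups, by a mean of 0.76, more than its differences between groups. Slc2a1 stood at -0.39 (adjusted p = 0.582, block adjusted p = 0.0117, SE 0.34) for 24 h and -0.33 (adjusted p = 0.778, block adjusted p = 0.0351, SE 0.34) for 7 d against 2 h with saline, and at 0.00 (adjusted p = 1, SE 0.34) and 0.03 (adjusted p = 0.988, SE 0.34) with INS37217. Slc2a3, the neuronal carrier, read 9.91, 9.50 and 9.65 in saline 2 h, 9.92, 9.18 and 9.55 at 24 h and 9.57, 9.05 and 9.15 at 7 d, and 9.78, 9.21 and 8.81 at 2 h, 9.66, 9.25 and 9.32 at 24 h and 9.47, 9.17 and 9.14 at 7 d with INS37217. Here replicate 1 was the highest array of every group. The saline 7 d difference from 2 h was -0.43 (adjusted p = 0.417, block adjusted p = 0.0137, SE 0.23), and it turned to 0.186 (adjusted p = 0.337) with the mean of its 4 probe sets. Of the other Slc2a3 probe sets, 1 stood at 0.99 (adjusted p = 0.033) and another at 0.47 (adjusted p = 0.0169) in that comparison, both higher.

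The 3 phosphofructokinase genes, whose product carries out the committed step of glycolysis, passed in no comparison without the block by their probe sets of highest mean. Pfkl, the liver-type subunit, read 10.46, 9.64 and 9.77 in saline 2 h, 10.82, 10.07 and 10.17 at 24 h and 10.89, 10.00 and 10.20 at 7 d, and 10.64, 9.50 and 9.81 at 2 h, 10.58, 9.90 and 10.01 at 24 h and 10.88, 10.02 and 9.97 at 7 d with INS37217. Replicate 1 was the highest array in each group, by a mean of 0.79. Pfkl stood at 0.40 (adjusted p = 0.588, block adjusted p = 0.00371, SE 0.35) at 24 h and 0.41 (adjusted p = 0.699, block adjusted p = 0.00386, SE 0.35) at 7 d against 2 h with saline, and at 0.31 (adjusted p = 0.817, block adjusted p = 0.0302, SE 0.35) for 7 d with INS37217. Pfkm, the muscle-type subunit, read 9.67, 9.65 and 9.85 at 2 h, 9.49, 9.46 and 9.56 at 24 h and 9.65, 9.65 and 9.90 at 7 d with saline. With INS37217 it read 9.86, 9.65 and 9.90 at 2 h, 9.33, 9.47 and 9.55 at 24 h and 9.55, 9.57 and 9.71 at 7 d, and its 24 h arrays lay below the 2 h arrays in both treatments. Its INS37217 24 h difference was -0.35 (adjusted p = 0.0678, block adjusted p = 0.00538, SE 0.11). Pfkp, the platelet-type subunit, read 10.32, 10.56 and 10.62 at 2 h, 10.38, 10.74 and 10.66 at 24 h and 9.84, 10.56 and 10.51 at 7 d with saline and 10.44, 10.52 and 10.62 at 2 h, 10.39, 10.51 and 10.53 at 24 h and 9.59, 10.41 and 10.28 at 7 d with INS37217. Its lowest arrays were the replicate 1 arrays of 7 d. The INS37217 7 d difference from 2 h was -0.43 (adjusted p = 0.35, block adjusted p = 0.0169, SE 0.21), and it turned to 0.085 (adjusted p = 0.937) with the mean of its 2 probe sets. The second Pfkp probe set passed as higher at 7 d against 2 h with saline, at 1.38 (adjusted p = 0.00314).

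Further down the path to lactate no gene passed without the block by its probe set of highest mean. Aldoc, the aldolase of brain and retina, read 11.33, 11.58 and 11.54 in saline 2 h, 11.56, 11.57 and 11.45 at 24 h and 11.61, 11.82 and 11.85 at 7 d, and 11.69, 11.63 and 11.73 at 2 h, 11.22, 11.38 and 11.37 at 24 h and 11.48, 11.77 and 11.67 at 7 d with INS37217. It was lowest at 24 h in the INS37217 retinas, with -0.36 (adjusted p = 0.0601, block adjusted p = 0.00738, SE 0.11) against 2 h and 0.32 (adjusted p = 0.226, block adjusted p = 0.0387, SE 0.11) from there to 7 d, and its saline 7 d difference from 2 h was 0.28 (adjusted p = 0.183, block adjusted p = 0.0366, SE 0.11). The mean of 10 Mueller glia markers was also lowest at 24 h, at 9.84, 9.33 and 10.25 with INS37217 and 9.78, 9.63 and 10.25 with saline at 2 h, 24 h and 7 d, and their part in the Aldoc values was not tested. Tpi1, which interconverts the 2 triose phosphates, read 11.36, 11.62 and 11.68 at 2 h, 11.72, 11.98 and 11.98 at 24 h and 11.84, 12.06 and 12.02 at 7 d with saline and 11.77, 11.62 and 11.67 at 2 h, 11.48, 11.83 and 11.85 at 24 h and 11.76, 11.94 and 11.91 at 7 d with INS37217. All later saline arrays of Tpi1 were above the saline 2 h arrays, at 0.34 (adjusted p = 0.131, block adjusted p = 0.0123, SE 0.13) for 24 h and 0.42 (adjusted p = 0.071, block adjusted p = 0.00337, SE 0.13) for 7 d. Eno2, the neuronal enolase, read 10.99, 11.11 and 11.13 at 2 h, 11.37, 10.95 and 11.03 at 24 h and 10.97, 10.71 and 10.51 at 7 d with saline, and 11.36, 11.10 and 11.11 at 2 h, 11.18, 10.82 and 10.85 at 24 h and 10.95, 10.62 and 10.60 at 7 d with INS37217. Its 7 d arrays lay below its 2 h arrays in both treatments, at -0.35 (adjusted p = 0.261, block adjusted p = 0.0217, SE 0.15) and -0.47 (adjusted p = 0.111, block adjusted p = 0.0034, SE 0.15). The saline difference of Eno2 at 7 d against 24 h was -0.39 (adjusted p = 0.424, block adjusted p = 0.0281, SE 0.15). Aldoa, Pgk1, Pgam1 and Pkm, further enzymes on the path to pyruvate, and Ldha and Ldhb, the lactate dehydrogenase subunits, passed in no comparison with or without the block by these probe sets. Another Ldhb probe set passed as lower at 24 h against 2 h with INS37217, at -0.37 (adjusted p = 0.0344). Over the 9 comparisons of 2 groups Aldoa ranged from -0.07 to 0.15, Pgam1 from -0.09 to 0.18, Pgk1 from -0.12 to 0.21 and Pkm from -0.23 to 0.13. Ldha ranged from -0.22 to 0.24 and Ldhb from -0.33 to 0.19.

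The HIF alpha subunits and their prolyl hydroxylases gave no difference that passed without the block by their probe sets of highest mean. Hif1a, the widely expressed HIF alpha subunit, ranged from -0.14 to 0.02 over the 9 comparisons, Egln1 from -0.15 to 0.07 and Egln3 from -0.16 to 0.12. Other probe sets of these genes passed as higher against saline 2 h, that of Egln1 at 24 h with 0.53 (adjusted p = 0.0397) and that of Hif1a at 7 d with 0.84 (adjusted p = 0.000999). These values concern RNA, whereas HIF alpha subunits are controlled mainly as proteins. Epas1, the second HIF alpha subunit and common in endothelium, read 6.92, 6.64 and 6.45 in saline 2 h, 6.97, 6.20 and 6.32 at 24 h and 7.27, 6.65 and 6.73 at 7 d, and 7.21, 6.72 and 6.96 at 2 h, 6.52, 6.49 and 6.40 at 24 h and 7.48, 6.37 and 6.7 at 7 d with INS37217. In the INS37217 groups every 24 h array was below every 2 h array, and the difference was -0.49 (adjusted p = 0.393, block adjusted p = 0.0135, SE 0.26).

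Of the HIF targets that act within the cell, Ndrg1, P4ha1 and P4ha2 passed only with the block by their probe sets of highest mean. Ndrg1, a stress-responsive gene, read 10.11, 10.85 and 10.81 in saline 2 h, 9.74, 10.26 and 10.11 at 24 h and 9.56, 10.50 and 10.27 at 7 d, and 9.72, 10.80 and 10.81 at 2 h, 9.66, 10.17 and 10.22 at 24 h and 9.39, 10.43 and 10.09 at 7 d with INS37217. Replicate 1 was again lowest in all 6 groups, by a mean of 0.75, and the 2 h arrays were the highest among replicates 2 and 3. Ndrg1 stood at -0.55 (adjusted p = 0.413, block adjusted p = 0.00135, SE 0.34) and -0.48 (adjusted p = 0.589, block adjusted p = 0.00534, SE 0.34) for 24 h and 7 d against 2 h with saline. With INS37217 the values were -0.43 (adjusted p = 0.637, block adjusted p = 0.0122, SE 0.34) and -0.47 (adjusted p = 0.631, block adjusted p = 0.00726, SE 0.34). Without the block, 2 other Ndrg1 probe sets passed as lower, 1 at -0.44 (adjusted p = 0.0446) for saline 7 d and -0.51 (adjusted p = 0.0149) for INS37217 24 h, and the other at -0.59 (adjusted p = 0.0266) for INS37217 24 h, each against 2 h. P4ha2, a prolyl hydroxylase of collagen, read 7.58, 7.33 and 7.33 at 2 h, 6.89, 6.74 and 6.99 at 24 h and 6.93, 7.42 and 7.22 at 7 d with saline. With INS37217 it read 7.61, 6.96 and 7.11 at 2 h, 6.60, 6.79 and 6.80 at 24 h and 7.22, 7.26 and 7.34 at 7 d. Its group means were lowest at 24 h in both treatments, at -0.54 (adjusted p = 0.0506, block adjusted p = 0.00771, SE 0.16) and -0.50 (adjusted p = 0.0842, block adjusted p = 0.0163, SE 0.16) against 2 h, and at 7 d against 24 h with INS37217 it stood at 0.54 (adjusted p = 0.119, block adjusted p = 0.0209, SE 0.16). P4ha1, of the same enzyme, read 7.86, 8.12 and 8.28 at 2 h, 8.20, 8.27 and 8.35 at 24 h and 7.77, 8.35 and 8.26 at 7 d with saline, and 7.70, 8.16 and 7.89 at 2 h, 7.95, 8.15 and 8.08 at 24 h and 7.95, 8.58 and 8.49 at 7 d with INS37217. Its groups overlapped in all comparisons of 2 times, and its INS37217 7 d difference from 2 h was 0.42 (adjusted p = 0.279, block adjusted p = 0.00937, SE 0.18). The second P4ha1 probe set passed as higher there without the block, at 1.22 (adjusted p = 0.0229), and with saline at 1.38 (adjusted p = 0.0106) for 7 d. Bnip3 marks mitochondria for removal, Ddit4 inhibits the growth kinase mTOR and Ero1a helps to form disulfide bonds in secretory proteins. These genes passed nowhere by their probe sets of highest mean, with ranges of -0.17 to 0.26, -0.20 to 0.39 and -0.30 to 0.11. Another Ero1a probe set passed as higher at 24 h against 2 h with saline, at 1.09 (adjusted p = 0.0153).

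With the block 18 of the 31 genes passed in at least 1 comparison, and 13 passed in none with either model, all by their probe sets of highest mean. No share of all probe sets passing in at least 1 comparison is given here, so these counts have no background beside them. At 24 h against 2 h the block gave 4 genes higher and 5 lower with saline, where 16.1% and 12.9% of all probe sets passed (29% together). With INS37217 it gave 2 higher and 8 lower, beside 11.6% and 10.5% (22.1% together). At 7 d against 2 h it gave 4 higher and 7 lower with saline, beside 12.3% and 9.59% (21.9%), and 2 higher and 6 lower with INS37217, beside 9.21% and 8.68% (17.9%). Between 24 h and 7 d 4 genes were lower with saline, beside 4.65% (7.37% in either direction), and 2 were higher and 2 lower with INS37217, beside 3.59% and 4.07% (7.66%).

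**Figure D3:**
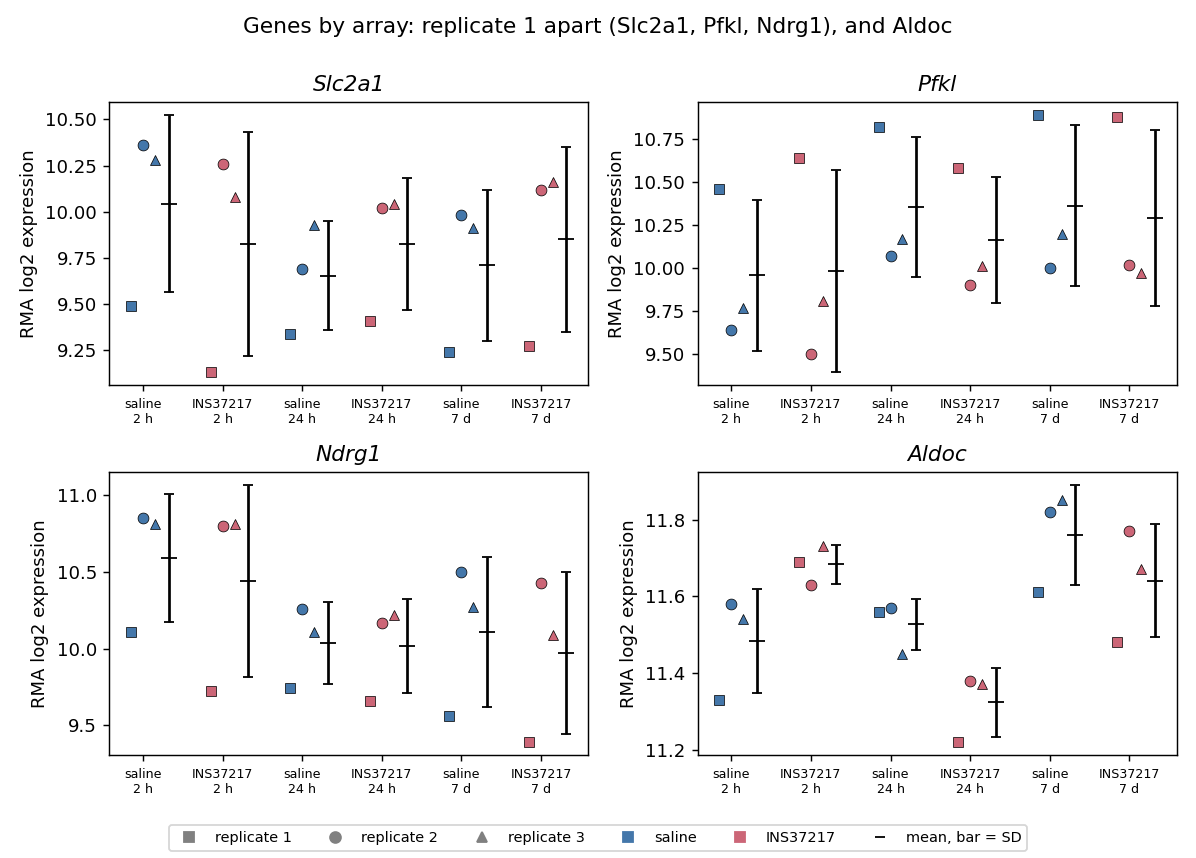
RMA log2 expression (y axes) of Slc2a1, Pfkl, Ndrg1 and Aldoc in the 6 groups (x axes), 1 point per array with its shape giving the replicate number, and the mean with a bar of 1 SD (n = 3). Replicate 1 is the lowest array of every group for Slc2a1 and Ndrg1 and the highest for Pfkl, while Aldoc shows no overlap between treatments at 2 h or at 24 h.

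Other probe sets of the same genes passed in both treatments. The 31 genes had 65 probe sets, and 19 genes had several. At 24 h against 2 h with saline 10 of the 65 passed (15.4%, beside 7.58% of all probe sets), and 7 of these 10 were not the probe set of highest mean. These 7, of Slc2a3, Hk1, Pfkp, Egln1, P4ha1 and Ero1a, were picked out after their values were seen, and all were higher at 24 h (0.53 to 1.71). The second Pfkp probe set read 6.91, 6.76 and 7.24 in saline 2 h, 8.18, 8.93 and 8.93 in saline 24 h, 7.67, 7.62 and 7.85 in INS37217 2 h and 8.23, 8.53 and 8.82 in INS37217 24 h. That is a difference of 1.71 with saline (adjusted p = 0.000404) and 0.81 with INS37217 (adjusted p = 0.0692), where the Pfkp probe set of highest mean gave 0.09 and -0.05. The second P4ha1 probe set read 5.67, 5.96 and 6.02 in saline 2 h, 6.64, 7.50 and 7.70 in saline 24 h, 6.19, 6.37 and 6.40 in INS37217 2 h and 6.65, 7.03 and 7.24 in INS37217 24 h, or 1.40 (adjusted p = 0.00779) and 0.65 (adjusted p = 0.275). Of these groups the saline 2 h arrays were the lowest in both genes and the INS37217 2 h arrays came next. The beta-actin 3' minus 5' signal was 0.93 to 1.1 on the saline 2 h arrays, 0.70 to 0.78 on the INS37217 2 h arrays and 0.46 to 0.70 on all later ones, and its part in these differences was not tested. With INS37217 7 of the 65 passed at 24 h against 2 h (10.8%, beside 6.52% of all probe sets). The 4 that were not of highest mean were higher for Hk1 and lower for Ldhb and Ndrg1, the latter by 2 probe sets. In the saline 7 d comparison with 2 h 9 of the 65 passed (13.8%, beside 5.44% of all probe sets). Of the 6 that were not of highest mean those of Hif1a, P4ha1, Pfkp and Slc2a3 were higher and that of Ndrg1 lower. With INS37217 4 passed there (6.15%, beside 4.91% of all probe sets), 1 of them, of P4ha1, not of highest mean.

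**Figure D4:**
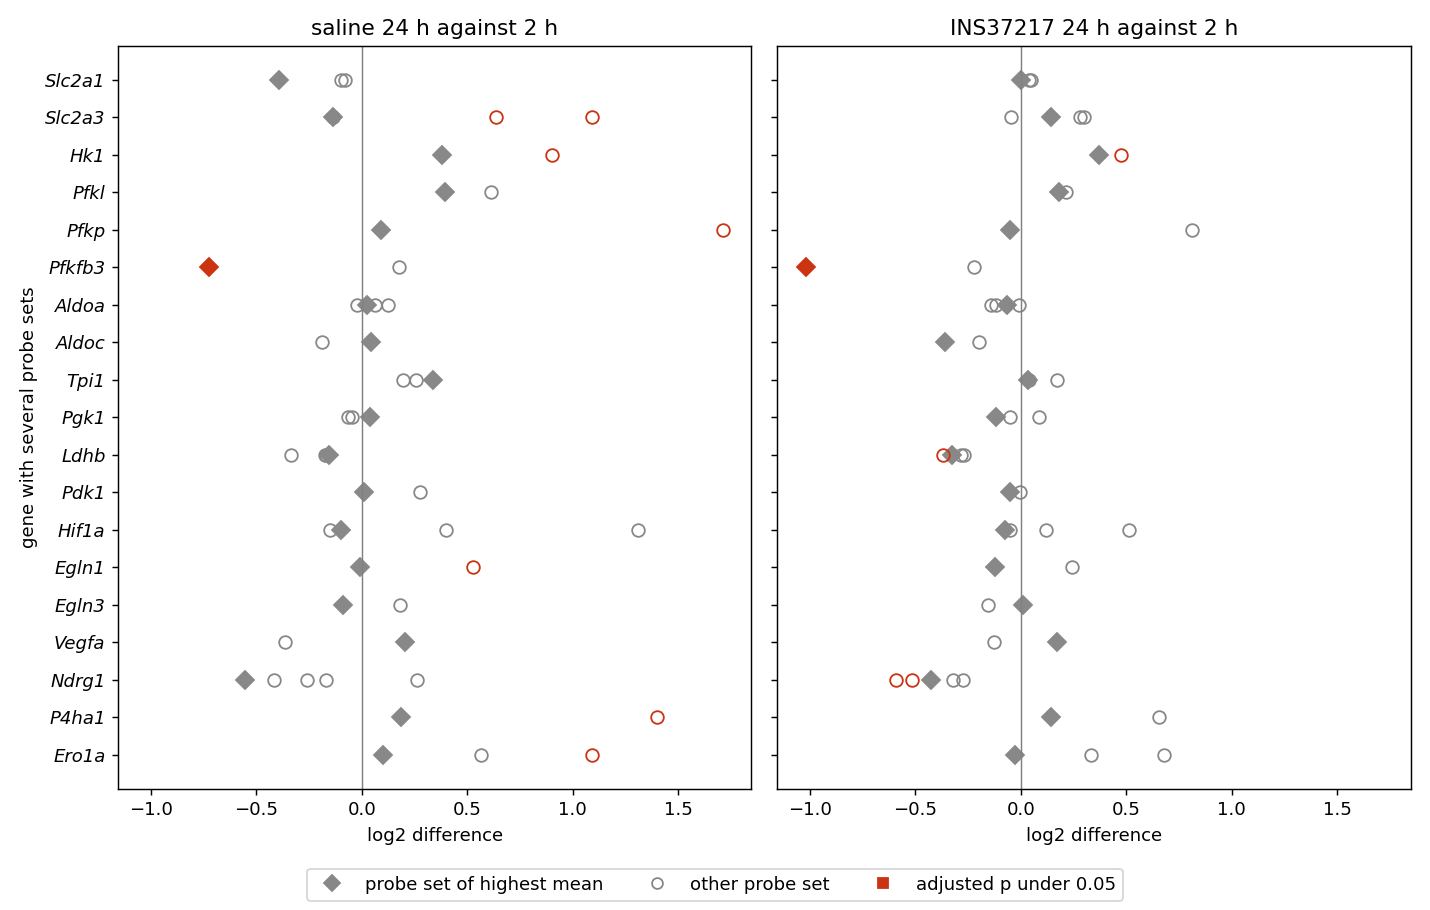
Log2 difference from 2 h to 24 h (x axes) with saline (left) and INS37217 (right) for every probe set of the 19 genes that have several (y axis). Filled diamonds are the probe set of highest mean, open circles the others and red marks an adjusted p under 0.05, and the red circles of the left panel all lie at 0.53 or higher.

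The comparison with INS37217 asked whether the drug, given to speed recovery, shifts these genes at each time. With limma 0 of 31 genes passed at 2 h, at 24 h or at 7 d, with or without the block, where 0.128%, 0.119% and 0.15% of all probe sets passed without it and 1.76%, 0.888% and 0.641% with it. At an unadjusted p under 0.05 there were 0, 2 and 0 genes without the block and 3, 3 and 0 with it. The shares above do not apply at that threshold, and none for it is given here. The differences ran from -0.42 to 0.29 at 2 h, -0.30 to 0.17 at 24 h and -0.21 to 0.21 at 7 d, with a median SE of 0.14, which 3 arrays a group did not resolve from 0. The 4 genes that changed with time did not pass between treatments. Pfkfb3 stood at 0.11 (adjusted p = 1, SE 0.11), -0.18 (adjusted p = 1, SE 0.11) and -0.02 (adjusted p = 1, SE 0.11) at 2 h, 24 h and 7 d, and Adm at 0.03, 0.08 and 0.07. Hk2 stood at 0.09, -0.08 and -0.12, and Pdk3 at 0.03, -0.06 and -0.02. The treatments could not be told apart for these genes, which does not show that they act alike.

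At 24 h most of the genes leaned the same way without passing. Of the 31 differences 27 were below 0, with a median of -0.09 against -0.003 over all probe sets, and the scalings tried gave -0.10 and -0.09. In 5 genes, Aldoc, Ldha, Bnip3, P4ha1 and Ero1a, all 3 INS37217 arrays were below all 3 saline arrays (16.1%, against 4.05% of all probe sets). Ero1a read 8.28, 8.27 and 8.39 with saline and 7.80, 8.02 and 8.23 with INS37217, and the difference was -0.30 (adjusted p = 1, SE 0.12). Ldha read 11.68, 11.61 and 11.65 with saline and 11.35, 11.43 and 11.51 with INS37217, at -0.22 (adjusted p = 1, SE 0.09). Cell markers also differed between these groups: from saline to INS37217 at 24 h the mean went from 9.63 to 9.33 for the 10 Mueller glia markers (0 passed without the block and 5 as lower with it). It went from 9.36 to 9.0 for 7 cone markers (0 passed without and 2 as lower with it) and from 6.58 to 7.10 for the 13 microglia, macrophage and neutrophil markers (2 passed as higher without and 5 with it). Beside these counts, 0.119% of all probe sets passed without the block and 0.888% with it, in either direction. The part of these markers in this lean was not tested. At 2 h the median was 0.03, against 0.01 over all probe sets, with 18 of 31 at 0 or above, Hif1a being at 0. At 7 d it was -0.03, against -0.02 over all probe sets, with 23 below 0. Groups did not overlap at 2 h for 1 gene higher, Aldoc, and 1 lower, Ero1a, beside 4.61% and 3.08% of all probe sets. Aldoc thus lay above all saline arrays at 2 h (0.20, adjusted p = 1, SE 0.11) and below them at 24 h (-0.20, adjusted p = 1, SE 0.11). The test of that change itself did not pass (-0.40, SE 0.15, adjusted p = 1, and 0.224 with the block). With limma 0 of 31 genes passed any of the 3 drug by time tests, beside 0.0575%, 0.0398% and 0.0884% of all probe sets. With the block it was again 0, beside 1.07%, 0.274% and 0.835%. At an unadjusted p under 0.05, to which these shares do not apply, there were 1, 1 and 0 genes without the block and 3, 2 and 4 with it.

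**Figure D5:**
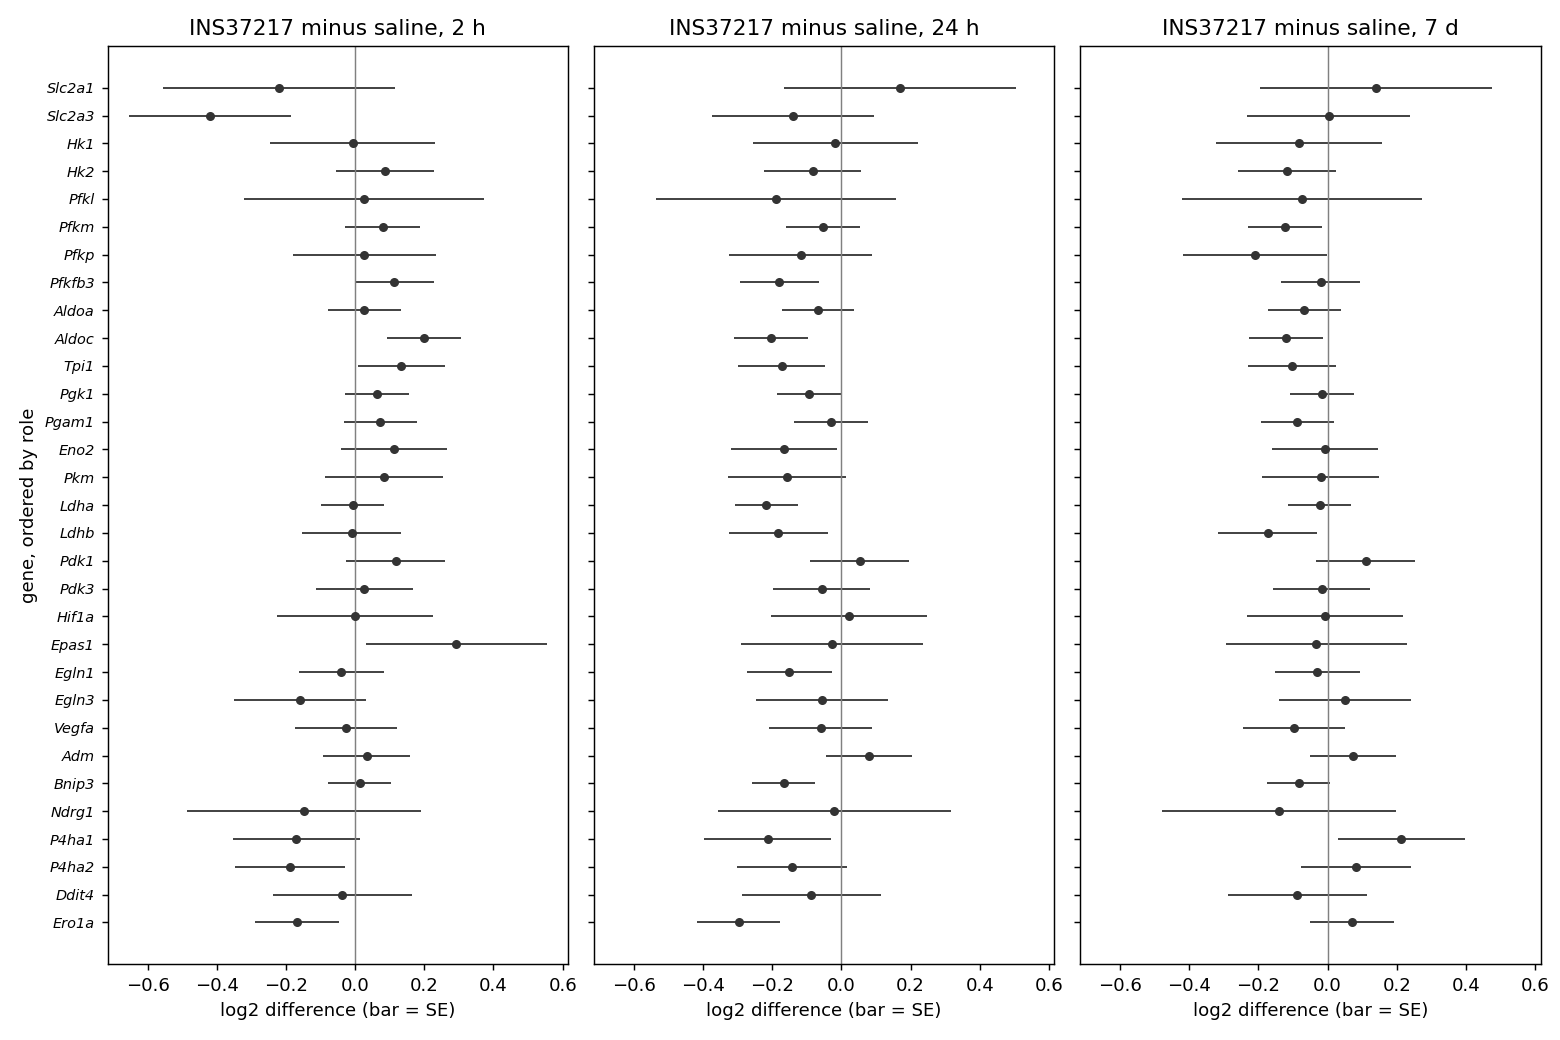
Log2 difference of INS37217 minus saline (x axes, bars are the SE of limma, n = 3 arrays a group) for the 31 genes (y axis, ordered by role) at 2 h, 24 h and 7 d. Values lie between -0.42 and 0.29, and at 24 h 27 of the 31 points are below 0.

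Other genes of these pathways were followed through 5 lists. Of 10 further glycolytic enzymes and regulators with a probe set, 0 passed in limma in the 9 comparisons of 2 groups without the block. Of 10 further genes of the oxygen-sensing pathway, 2 passed at 24 h against 2 h with saline, beside 7.58% of all probe sets. Vhl, which marks hydroxylated HIF for degradation, rose by 0.35 (adjusted p = 0.0466, SE 0.10), and Crebbp, a coactivator, fell by 0.51 (adjusted p = 0.0288, SE 0.13). Crebbp also fell with INS37217, by 0.58 (adjusted p = 0.0131, SE 0.13).

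Of 35 further HIF targets, 3 rose and 4 fell at 24 h against 2 h with saline, and 5 rose and 3 fell with INS37217. All probe sets passed at 4.65% higher and 2.93% lower with saline and 3.23% and 3.3% with INS37217. Zfp36l1, which destabilises messenger RNAs, fell by 1.74 (adjusted p = 0.000137, SE 0.23) with saline, from 9.51 ± 0.24 to 7.77 ± 0.21 (SD, n = 3), and by 1.17 (adjusted p = 0.00392, SE 0.23) with INS37217. Anxa2, a membrane-binding annexin, rose by 1.34 (adjusted p = 0.00173, SE 0.23) and 1.33 (adjusted p = 0.00168, SE 0.23). Nampt, an enzyme of NAD synthesis, rose by 0.98 (adjusted p = 0.0293, SE 0.26) and 1.09 (adjusted p = 0.0168, SE 0.26). Kdr, the receptor through which Vegfa drives vessel growth, rose with saline from 8.79 ± 0.03 to 9.54 ± 0.08 (SD, n = 3), by 0.75 (adjusted p = 0.0022, SE 0.13), and with INS37217 by 0.73 (adjusted p = 0.0026, SE 0.13). Cxcr4, a chemokine receptor of leukocytes among other cells, rose with INS37217 by 0.75 (adjusted p = 0.00035, SE 0.11) and stood at 0.26 (adjusted p = 0.203, SE 0.11) with saline. Its probe set lay at the 9.0th percentile of mean signal, and its drug by time differences did not pass without the block. Kdr is also on the list of endothelium and pericyte markers, of which 2 of 10 passed as higher with saline and 3 of 10 with INS37217, and their part in it was not tested.

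At 7 d against 2 h 1 of the 35 HIF targets rose and 3 fell with saline, and 6 rose and 6 fell with INS37217, where 5.44% and 4.91% of all probe sets passed in either direction. Those that fell with saline were Zfp36l1 (-1.82, adjusted p = 0.000118, SE 0.23), Angptl4, a secreted inhibitor of lipoprotein lipase (-1.0, adjusted p = 0.000561, SE 0.15), and Bhlhe40, a clock-linked repressor (-0.68, adjusted p = 0.000506, SE 0.10). All 3 fell with INS37217 as well, by 1.07, 0.93 and 0.60. Kdr rose by 0.85 (adjusted p = 0.00112, SE 0.13) with saline and 1.11 (adjusted p = 7.17e-05, SE 0.13) with INS37217. Igfbp5, which binds insulin-like growth factors, rose with INS37217 by 1.14 (adjusted p = 0.0211, SE 0.27) and stood at 0.43 (adjusted p = 0.512, block adjusted p = 0.0229, SE 0.27) with saline, and this contrast did not pass the drug by time test (0.71, adjusted p = 1, SE 0.38).

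At 7 d against 24 h, 0 of the 35 passed in limma with saline, and 7 had an unadjusted p under 0.05. All probe sets passed there at 1.31% by adjusted p, a share that does not apply to the unadjusted count. With INS37217 2 of the 35 rose and 1 fell, where 2.21% of all probe sets passed. The risers were Lox, which crosslinks collagen (1.06, adjusted p = 0.0164, SE 0.23), and Car9, the carbonic anhydrase often used as a hypoxia marker (0.68, adjusted p = 0.0453, SE 0.17). They stood at 0.30 (adjusted p = 0.91, SE 0.23) and 0.25 (adjusted p = 0.865, SE 0.17) with saline, and the drug by time differences were 0.76 (adjusted p = 1, SE 0.32) and 0.44 (adjusted p = 1, SE 0.24). Of 7 fibroblast markers, 4 passed as higher with INS37217 and 0 with saline in the same comparisons, and their part in Lox was not tested. Bhlhe40 fell with INS37217 by 0.41 (adjusted p = 0.0416, SE 0.10).

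Lactate and pyruvate handling gave single genes. Of 12 genes with a probe set, 2 rose at 7 d against 2 h with saline, where 5.44% of all probe sets passed in either direction. They were Slc16a8, the lactate carrier of the pigment epithelium (0.64, adjusted p = 0.00813, SE 0.13), and Bsg, the chaperone of these carriers (0.37, adjusted p = 0.0316, SE 0.10). With INS37217 1 of 12 fell at 24 h against 2 h, where 3.3% of all probe sets were lower. This gene was Slc16a1, the lactate carrier of many cells (-1.06, adjusted p = 0.0305, SE 0.28). It stood at -0.74 (adjusted p = 0.136, block adjusted p = 0.000122, SE 0.28) with saline. Bsg rose at 7 d against 24 h with INS37217 by 0.49 (adjusted p = 0.00907, SE 0.10). Of 9 pigment epithelium and melanocyte markers, 5 passed as higher where Slc16a8 rose, beside 5.44% of all probe sets in either direction. The part of these markers in the Slc16a8 result was not tested.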

How the data were processed

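The authors deposited RMA values in log2, per the submitters' processing notes. The sources used here give neither version nor settings, and values ran from 2.83 to 14.15. Of 22690 probe sets 64 controls were left out and 22626 tested: 20380 had 1 gene, 691 several and 1555 none (RefSeq symbols through gene IDs). limma 3.58.1 in R 4.3.3 fitted 1 mean per group over all 18 arrays, with residual and prior degrees of freedom of 12 and 3.3 (10 and 10.5 with the block), and Benjamini-Hochberg adjustment. Steps were tested on simulated data. After removal of group means, same-numbered arrays of different groups (45 pairs) correlated at 0.426 to 0.921. Replicates 2 and 3 of different groups (30 pairs) correlated at 0.363 to 0.725, and replicate 1 with either (60 pairs) at -0.847 to -0.501. The replicate numbers were taken to pair the arrays, although the first 2 of these ranges overlap. No label used here says what the numbers stand for. The fit without the block was fixed as the main one.

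The 35 genes and all lists were chosen with earlier results of these data known. Values in every array are given for genes that passed with or without the block, and up to 4 genes per further list. Alternatives tried were quantile normalization, equal array medians, only probe sets above the median mean, trend and robust eBayes, fits of the 2 compared groups alone, the block, averaging all probe sets of a gene, only replicates 2 and 3, and each array left out. The number of arrays limits the precision.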

Additional observations from a re-analysis of the deposited data

How the results depend on the processing

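The counts of genes that passed, without the block, were 3 of 31 for each comparison with 2 h and 0 for all others. The replicate block gave 9 for saline 24 h against 2 h, 11 for saline 7 d against 2 h, 4 for saline 7 d against 24 h, 10 for INS37217 24 h against 2 h, 8 for INS37217 7 d against 2 h and 4 for INS37217 7 d against 24 h. Only replicates 2 and 3 gave 9, 10, 1, 7, 6 and 3 in the same order. The fit of only probe sets above the median level left Adm, Pfkfb3, Epas1 and Egln3 untested. It gave 1 for saline 7 d, INS37217 24 h and INS37217 7 d against 2 h. Quantile normalization gave 5 for INS37217 24 h against 2 h and 1 for each comparison of 7 d with 24 h. The mean of a gene's probe sets gave 8 for saline and 5 for INS37217 24 h against 2 h. It also reversed Slc2a3 (0.186) and Vegfa (-0.033) for saline 7 d against 2 h and Pfkp (0.085) for INS37217 7 d against 2 h. Apart from the genes left untested, the cause was not tested. Each array left out in turn gave 2 to 3 for saline 24 h and saline 7 d against 2 h, 2 to 4 for INS37217 24 h against 2 h, 3 for INS37217 7 d against 2 h and 0 for every other comparison. The drug and drug by time comparisons gave 0 under all alternatives. Of the 12 calls made without the block, the block changed none.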

Other observations

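Genes of the pentose phosphate path and of glycogen, which branch from glycolysis, were higher at later times where they passed. Of 14 with a probe set, 1 rose and 0 fell from 2 h to 24 h with saline (4.65% of all probe sets were higher), and with the block 5 rose and 0 fell in each treatment, where 16.1% of all probe sets were higher with saline and 11.6% with INS37217. The riser without the block was Pgls, an enzyme of the branch that makes NADPH, at 0.56 (adjusted p = 0.008, SE 0.12) with saline and 0.40 (adjusted p = 0.0605, block adjusted p = 0.0115, SE 0.12) with INS37217. From 2 h to 7 d Pygl, a glycogen phosphorylase, rose with INS37217 by 0.90 (adjusted p = 0.00165, SE 0.15) and stood at 0.43 (adjusted p = 0.141, block adjusted p = 0.00644, SE 0.15) with saline, and its drug by time difference did not pass (0.48, adjusted p = 1, SE 0.22). The pentose phosphate epimerase Rpe rose from 2 h to 7 d with saline, from 6.72 ± 0.28 to 7.75 ± 0.47 (SD, n = 3), by 1.03 (adjusted p = 0.0475, SE 0.28).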
